A study of Mus musculus with 6 samples.

Results

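The genes described here are 8 interferon response genes of mouse quadriceps: the transcription factors Irf7, Irf9, Stat2 and Irf1 and the antiviral effectors Oasl2, Ifit3, Bst2 and Ifi27. They were taken by gene name from a list of 9, and the ninth, Isg15, was not analysed here. They are 8 of the 20015 genes in the table of counts. RNA was sequenced in 6 libraries of quadriceps, the muscle that straightens the knee: 3 from limbs with an injured anterior cruciate ligament (ACL) and 3 from non-injured limbs, lettered A, B and C within each group. The labels give no strain, age, sex, genotype, way of injury or time after it, and leave unsaid whether each library is its own animal. The p-values below therefore reflect library-to-library spread, part of which may be technical. The organism label is mouse, although the protocol and design text speak of human tissue, and the gene models are those of the mouse. The table's name refers to myonuclear RNA, whereas the protocol gives no step that isolates nuclei.

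Interferons are secreted proteins by which cells warn each other of viruses and of damaged or misplaced nucleic acid. Type I interferons bind the receptor pair IFNAR1 and IFNAR2, whose Janus kinases phosphorylate STAT proteins, STAT2 among them. STAT2 joins IRF9 in a complex, ISGF3, that binds the interferon-stimulated response element (ISRE) in the promoters of target genes. Interferon gamma, from T cells and natural killer cells, acts through the gamma-activated site (GAS). IRF7 drives production of more type I interferon, and IRF1 is an early target of interferon gamma. In muscle the same genes can be expressed by fibres, by vessel cells and by macrophages.

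The promoter stretches below show which of the 8 genes carry the letters that these factors are known to bind. RefSeq promoters (assembly GRCm38.p6, 250 bases before to 50 after the start of the gene) were matched for 7 of the 8 genes by symbol. Each was searched on both strands for an ISRE core (GAAA, 2 bases of any kind, GAAA) and for a GAS core (TTCNNNGAA). Capitals mark the matches, which share bases where an ISRE and a GAS match overlap, as in Bst2.
Bst2: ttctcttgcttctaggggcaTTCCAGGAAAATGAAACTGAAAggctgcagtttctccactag
Stat2: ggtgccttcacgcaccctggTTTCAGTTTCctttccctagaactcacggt
Ifit3: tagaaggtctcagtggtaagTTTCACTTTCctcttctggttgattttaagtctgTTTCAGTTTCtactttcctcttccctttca
Irf1: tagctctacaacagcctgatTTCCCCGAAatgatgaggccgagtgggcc
These stretches are chr8:71537567-71537628 on the minus strand and chr10:128270256-128270305, chr19:34583353-34583436 and chr11:53769904-53769952 on the plus strand, each written 5′ to 3′ along the gene. The ISRE core was present in the promoters of 3 of the 7 genes (Bst2, Stat2 and Ifit3), against 3.99% of the 27025 genes in the RefSeq table. The GAS core was present in 2 of the 7 (Bst2 and Irf1), against 9.55% of all genes. A match is a string of letters and no measured binding, and the windows of Irf7, Irf9 and Oasl2 held neither string. Among 51 other type I interferon target genes with a count and a promoter in the table, 24 held the ISRE core, as did 11 of 11 interferon gamma target genes. The GAS core was held by 5 of the 51 and by 6 of the 11.

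Values are given as CPM, the count of a gene set against the size of its library, after scaling by edgeR's TMM factors. Library totals ran from 6452791 to 8752501 counts, so that 1 count was worth between 0.115 and 0.153 CPM. The 8 genes are sparse at this depth, with means of 9.50 to 54.0 counts per library. Muscle fibre markers (Ckm, Acta1, Ttn and others, 12 of 12 measured) summed to 171277 to 178939 CPM in injured and 185220 to 194136 CPM in non-injured libraries, so the defining genes of the labelled tissue were present. RNA of the mitochondrial genome took 9.53% to 11.2% of counts in injured and 6.20% to 7.52% in non-injured libraries. Letter A stood apart from B and C on the second principal component in both groups.

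None of the 8 genes passed the test between injured and non-injured quadriceps (unpaired edgeR quasi-likelihood test, adjusted p under 0.05 over 16095 genes). That test called 0.746% of all genes. Calls over all genes were 0.715% higher and 0.0311% lower in injured muscle. Against 0 of the 7 tested by edgeR, DESeq2 called 1 (2.03% of all genes) and limma-voom 0 (0.367%). At an unadjusted p under 0.05, 4 of the 7 were higher in injured muscle and 0 lower, where 9.25% of all genes were higher. Irf7 came nearest at 2.36-fold. Oasl2, Stat2 and Irf9 had values of 1.60-fold to 1.82-fold, Ifit3 and Irf1 had smaller ones with overlapping groups, and Ifi27 leaned the other way. Groups were apart with the injured libraries on top in 4 of the 7 genes, against 11.9% of all genes tested, and with the injured libraries below in 0, against 9.57%. Bst2 had too few counts for the filter and was not tested. The median log2 fold change of the 7 was 0.67, with 6 positive, and that of all genes tested 0.00, with 50.2% positive. Over 8 of 8 genes with no filter it was 0.65, with 7 positive, where 51.6% of all genes were positive. Bst2, positive there, reached the table's lowest row maximum of 10 counts in injured C alone. Its sign is therefore not independent of its having a row. Genes of like abundance (means of 10 to 50 counts) had a median of 0.20.

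**Figure D1:**
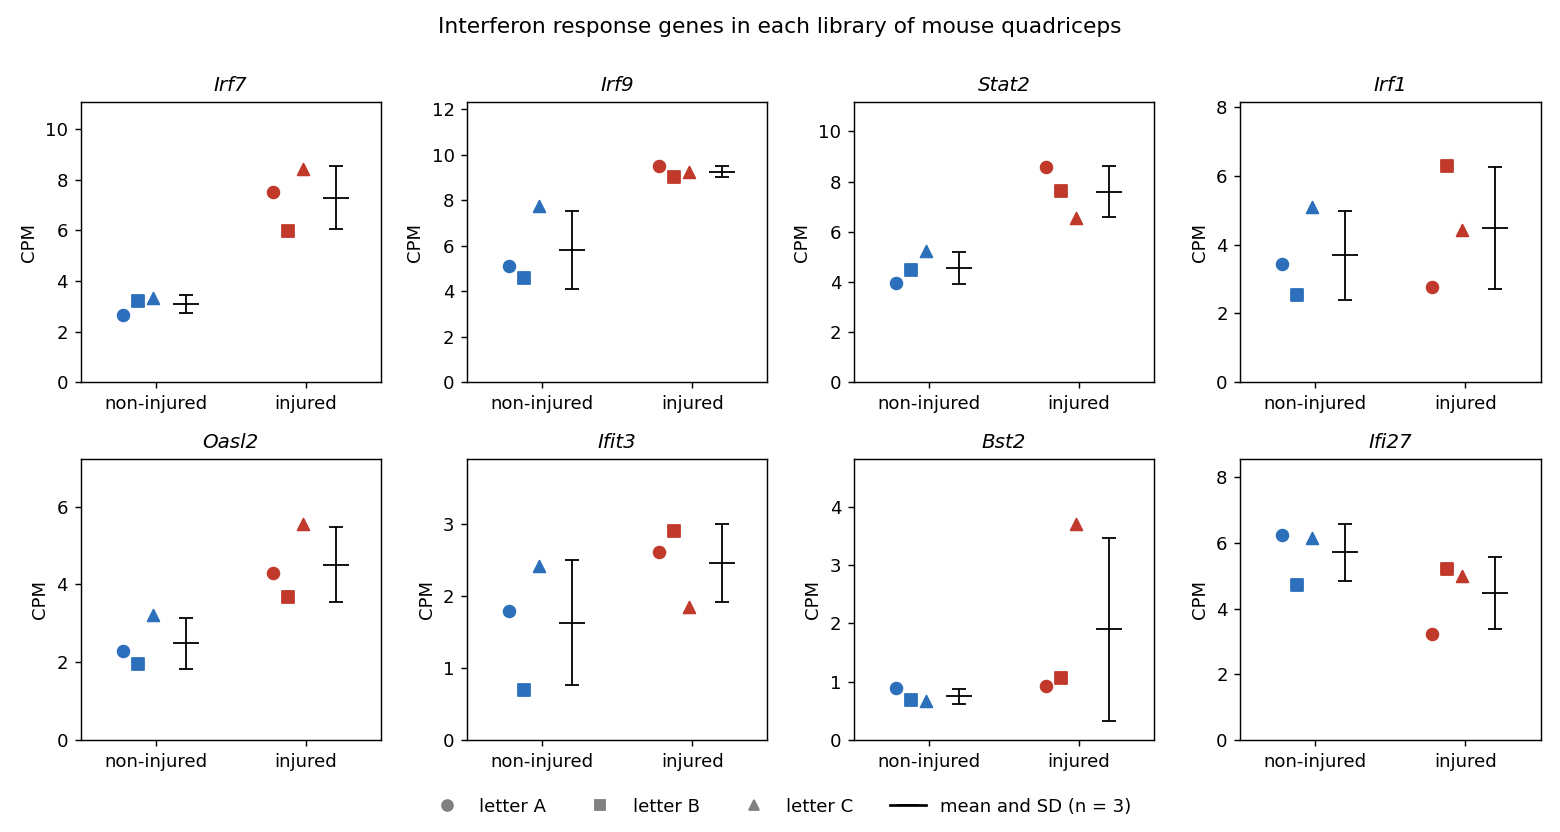
CPM of the 8 genes in each library (y axis, linear from 0), with non-injured libraries in blue and injured ones in red, letters as marker shapes, and the mean with its SD (n = 3) in black. Irf7, Irf9, Stat2 and Oasl2 show no overlap between groups, while Irf1, Ifit3 and Ifi27 overlap and the Bst2 mean rests on injured library C at 3.70 CPM.

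Irf7, the factor that amplifies type I interferon production, lies on chromosome 7 (141262706 to 141266481, mm10, minus strand). It measured 7.50, 5.96 and 8.40 CPM in injured libraries A, B and C and 2.68, 3.21 and 3.35 CPM in non-injured A, B and C. The lowest injured library was well above the highest non-injured one, and the letter pairs gave CPM ratios of 2.80 (A), 1.85 (B) and 2.51 (C). The means were 7.29 ± 1.23 and 3.08 ± 0.35 CPM (SD, n = 3), a log2 fold change of 1.24 ± 0.29 (SE) with an edgeR adjusted p of 0.0697. With the letter as a block in the edgeR fit the log2 fold change was 1.23 and the adjusted p 0.0222. In that fit 1 of the 7 genes, Irf7, was called, against 5.86% of all genes. DESeq2 also called it, at an adjusted p of 0.0464, and fits without 1 library did not (adjusted p 0.0991 to 0.23). It shares 45 exonic bases, 1.19% of its exons, with Phrf1 on the other strand.

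Stat2 and Irf9 encode components of ISGF3. Stat2 (chromosome 10, 128270559 to 128292849) measured 8.57, 7.64 and 6.55 CPM in injured A, B and C and 3.95, 4.48 and 5.22 CPM in non-injured A, B and C. The groups did not overlap, and the letter C libraries lay closest together, at a CPM ratio of 1.25 against 2.17 for letter A. The log2 fold change of Stat2 was 0.74 ± 0.26 (SE, edgeR adjusted p 0.208). Irf9 (chromosome 14, 55603571 to 55610030) measured 9.49, 9.02 and 9.26 CPM in injured A, B and C and 5.10, 4.59 and 7.76 CPM in non-injured A, B and C. The 3 injured libraries were nearly level, and the difference between groups was set mostly by the 2 lower non-injured libraries, A and B. The means of Irf9 were 9.26 ± 0.24 and 5.82 ± 1.70 CPM (SD, n = 3), and its log2 fold change was 0.67 ± 0.26 (SE, edgeR adjusted p 0.242). Irf9 shares 123 exonic bases, 2.28% of its exons, with Rnf31 on the same strand.

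Irf1 (chromosome 11, 53770014 to 53778374) encodes a transcription factor whose promoter GAS match is printed above. It measured 2.76, 6.27 and 4.41 CPM in injured A, B and C and 3.44, 2.53 and 5.09 CPM in non-injured A, B and C. The groups overlapped throughout, with the highest and the second lowest library both injured. The log2 fold change was 0.29 ± 0.39 (SE, edgeR adjusted p 0.778), and without injured B it was -0.028. The deposited counts of Irf1 are fractional in 5 of the 6 libraries. Added to those of Gm17334, a gene on the other strand that shares 135 exonic bases with it, they gave whole numbers in 6 of 6 libraries (within 0.01 counts). Reads were therefore split between these genes, and the sum was 6.49 ± 2.75 CPM in injured and 4.79 ± 0.96 CPM in non-injured libraries (SD, n = 3).

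The effectors differed among themselves. Oasl2, an oligoadenylate synthetase-like protein of antiviral defence, lies on chromosome 5 (114896936 to 114912234). It measured 4.29, 3.67 and 5.55 CPM in injured A, B and C and 2.30, 1.95 and 3.21 CPM in non-injured A, B and C. The groups did not overlap, and the order of the letters was the same in both, B lowest and C highest. The 3 letter pairs gave CPM ratios of 1.87, 1.88 and 1.73, the narrowest span of the 8 genes, and the log2 fold change was 0.86 ± 0.36 (SE, edgeR adjusted p 0.283).

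Ifit3 (chromosome 19, 34583531 to 34588731) encodes a protein that takes part in blocking viral RNA, and Ifit3b is its near-identical copy. Ifit3 measured 2.60, 2.90 and 1.85 CPM in injured A, B and C and 1.79, 0.69 and 2.41 CPM in non-injured A, B and C. Injured C lay below non-injured C, so the groups overlapped, and the log2 fold change was 0.60 ± 0.51 (SE, edgeR adjusted p 0.626), or 0.20 without non-injured B. The counts of Ifit3 and Ifit3b are fractional in the same 5 libraries and sum to whole numbers in 6 of 6. Non-injured B, the lowest in Ifit3 at 5.75 counts, was the highest in Ifit3b at 12.3 counts. The pair together held 23, 23 and 21 counts in injured A, B and C and 20, 18 and 25 in non-injured A, B and C. Its summed level was 3.34 ± 0.30 CPM in injured and 2.65 ± 0.65 CPM in non-injured libraries (SD, n = 3), again with overlap, and the division between the copies is uncertain.

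Bst2 (chromosome 8, 71534255 to 71537456) encodes tetherin, which holds budding viruses at the cell surface. It measured 6, 7 and 26 counts in injured A, B and C and 7, 6 and 5 counts in non-injured A, B and C. Injured C stood alone, and the other 5 libraries lay between 0.67 and 1.07 CPM, that is, within 2 counts of one another. Without the filter its log2 fold change was 1.29 ± 0.70 (SE, edgeR adjusted p 0.366), and without injured C as well it was 0.34 ± 0.89 (adjusted p 0.88). The groups of Bst2 did not overlap in CPM, but the nearest pair, 0.92 in injured A and 0.89 in non-injured A, differed by less than the worth of 1 count.

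Ifi27 (chromosome 12, 103434211 to 103440239), an interferon-induced membrane protein of mitochondria and nuclear envelope, measured 3.22, 5.20 and 4.98 CPM in injured A, B and C. The non-injured libraries A, B and C measured 6.25, 4.71 and 6.16 CPM. Non-injured B lay below 2 of the injured libraries, so the groups overlapped. The log2 fold change was -0.35 ± 0.30 (SE, edgeR adjusted p 0.634), the only negative value of the 8, and was -0.10 without both letter A libraries.

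**Figure D2:**
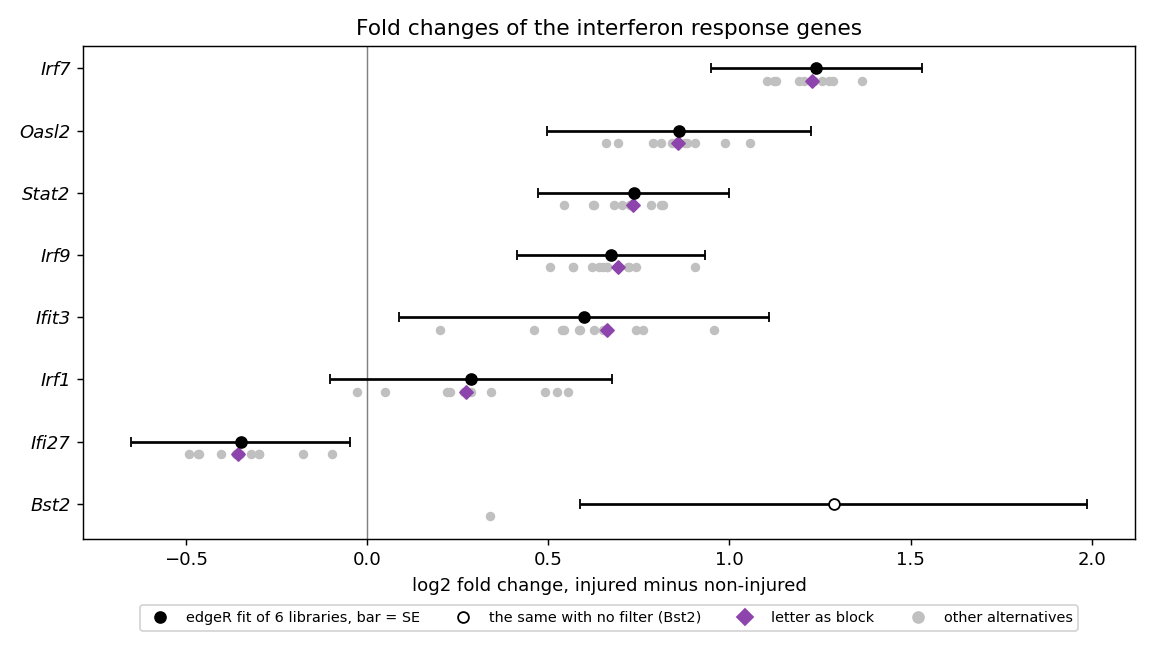
Log2 fold changes of the 8 genes, injured minus non-injured (x axis), in the edgeR fit with the SE as bars, with the fit blocked by letter as diamonds and the other alternatives in grey. Irf7 stays between 1.10 and 1.36, Irf1 crosses 0 in 1 fit, and Bst2, fitted with no filter, drops from 1.29 to 0.34 when injured C is left out.

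Levels of different genes were compared as CPM per kilobase of the longest coding transcript in GENCODE M21. Ifi27 was the most abundant in both groups, at 4.57 ± 1.11 in injured and 5.84 ± 0.89 CPM per kb in non-injured libraries (SD, n = 3). In non-injured libraries it was followed by Irf9 (1.97), Irf1 (1.72), Irf7 (1.38), Stat2 (1.03), Bst2 (0.95), Ifit3 (0.93) and Oasl2 (0.80 CPM per kb). The lowest Ifi27 library, at 4.82, was above the highest of Irf9, at 2.62, and the lowest of Irf7, at 1.20, was just above the highest of Stat2, at 1.19. All other neighbours in that order overlapped. In injured libraries Ifi27 was followed by Irf7 (3.26), Irf9 (3.13), Bst2 (2.40), Irf1 (2.10), Stat2 (1.73), Oasl2 (1.44) and Ifit3 (1.41 CPM per kb), and every pair of neighbours overlapped. Irf7 thus stood after Irf9 and Irf1 in the non-injured order and ahead of both in the injured one.

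Over the 6 libraries, Irf7, Irf9, Stat2 and Oasl2 followed each other, with Pearson r of log2 CPM from 0.80 (Stat2 and Oasl2) to 0.94 (Irf9 and Oasl2). Irf1 followed Irf7 less (0.22), and Ifi27 ran against Irf7 (-0.62) and Stat2 (-0.67). These values describe 6 libraries that share their depth and the 2 groups. Among 9059 genes with a mean of at least 50 counts, Myof (r = 0.99), Gas6 (0.99) and the collagen Col3a1 (0.99) had the pattern most like that of Irf7. Those most like Stat2 were Macf1, Cilp and Lmna (r of 0.98 to 0.99), those most like Irf9 were Fibp, Cdk4 and Ranbp1 (0.97 to 0.99), and those most like Oasl2 were Stoml2, Tchp and Tbc1d22a (each at least 0.98). Genes with overlapping groups had partners as close: Irf1 with Vps39 (0.99), Ifit3 with Ntn4 (0.98) and Ifi27 with Polr3gl (0.99).

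Around these genes stood the rest of the pathway, given here from lists of known components. The ligands were barely measured: of the type I interferon genes Ifna15 had 6, 11 and 4 counts in injured A, B and C and 0, 5 and 3 in non-injured A, B and C, and Ifnab had 3, 12 and 1 against 1, 4 and 4. Both overlapped between groups and did not pass the filter, and the other listed ligands were not analysed here. Of 9 receptor and Janus kinase genes 0 passed by edgeR, DESeq2 or limma-voom, and the median log2 fold change was 0.20. At an unadjusted edgeR p under 0.05, 2 of the 9 were higher (22.2%, against 9.25% of all genes). The receptor chain Ifnar2 measured 28, 20 and 18 counts in injured A, B and C and 17, 14 and 8 in non-injured A, B and C (log2 1.02, adjusted p 0.29), while its partner Ifnar1 had a log2 fold change of 0.11 (adjusted p 0.85). Ifnlr1, the receptor chain for type III interferons, had 10, 9 and 11 counts against 0, 2 and 6 (log2 2.09, adjusted p 0.221). Ifnlr1, 1 of the 2 at an unadjusted p under 0.05, passed the filter on its injured libraries. The share of 22.2% is therefore not independent of its rise.

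Nucleic acid sensing was the upstream branch with a call. Of 12 genes tested (16 measured), Ikbke rose in injured muscle and 0 fell, 1 of 12 against 0.715% of all genes called higher. At an unadjusted p under 0.05, 5 of the 12 were higher, against 9.25% of all genes. Ikbke (9, 9 and 7 counts in non-injured A, B and C), Sting1 (5, 10 and 9) and Zbp1 (6, 11 and 8) passed the filter on their injured libraries. These shares are therefore not independent of their rises. The median log2 fold change was 0.75, against 0.20 over genes with means of 10 to 50 counts. Ikbke, a kinase that phosphorylates IRF3 and IRF7, measured 4.59, 5.81 and 4.56 CPM in injured A, B and C and 1.15, 1.03 and 0.94 CPM in non-injured A, B and C. Every injured library was far above every non-injured one, at a log2 fold change of 2.24 ± 0.39 (SE, edgeR adjusted p 0.0239) and a mean of 20.8 counts. The call ended on leaving out injured B (adjusted p 0.081) or C (0.0665), or non-injured B (0.0817) or C (0.139), with log2 values of 2.12 to 2.28 in those fits. It also ended by limma-voom (log2 2.19, adjusted p 0.0502), which called 0 genes of this list. The related kinase Tbk1 had a log2 fold change of -0.07 (adjusted p 0.88). The adaptor Myd88 measured 7.81, 8.25 and 8.40 CPM against 3.57, 4.94 and 4.42 (log2 0.92, adjusted p 0.114, and adjusted p 0.0453 with the letter block). The sensors Sting1 (log2 1.37, adjusted p 0.207), Zbp1 (1.31, 0.254) and Ifih1 (0.89, 0.248) had separated groups and did not pass.

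Among the other type I interferon target genes, 3 of the 52 tested (61 measured) rose in injured muscle, Sp110, Ifi204 and Slfn2, and 0 fell (edgeR adjusted p under 0.05). That is 5.77% of the list, against 0.715% of all genes called higher. With the letter block 6 of the 52 rose, 11.5%, against 3.21% of all genes, with Slfn9, Oasl1 and Ifi213 added. Slfn2, Slfn9, Oasl1 and Ifi213, at non-injured means of 0.62 to 0.91 CPM, passed the filter on their injured libraries. The shares called are therefore not independent of their rises. The median log2 fold change was 0.62 over the 52. Over the 61 with no filter it was 0.59, with 55 positive, where 51.6% of all rows were positive. Groups were separated with injured higher in 26 of the 61 genes, 42.6%, against 14.1% of all rows of the table, and with injured lower in 0. Some of the 61 reached the table's lowest row maximum of 10 counts in injured libraries alone. Examples are Mx1, Ifi44, Ifi209 and Slfn1, at non-injured means of 0.16 to 0.38 CPM. The values with no filter are therefore not independent of the rises either. Among genes tested with means of 10 to 30 counts, 18.9% were separated higher and the median log2 fold change was 0.28. Usp18, a type I target counted below among the inhibitors, was separated with injured lower.

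Sp110, a nuclear body protein, had the highest counts of the 3. It held 100, 144 and 115 counts in injured A, B and C and 37, 57 and 26 in non-injured A, B and C. The groups lay far apart, at 17.9 ± 3.60 and 4.91 ± 1.54 CPM (SD, n = 3) and a log2 fold change of 1.85 ± 0.26 (SE, edgeR adjusted p 0.00526), and the call was kept whichever library was left out (adjusted p 0.00394 to 0.0425). Ifi204, a DNA-binding protein of the p200 family, measured 13.8, 6.72 and 8.40 CPM in injured and 3.83, 1.95 and 2.14 CPM in non-injured A, B and C, with letter A highest in both groups. Its log2 fold change was 1.86 ± 0.36 (SE, edgeR adjusted p 0.0357). Leaving out injured A or C ended that call (adjusted p 0.0788 and 0.0821), as did leaving out non-injured B or C (0.111 and 0.191) and testing by limma-voom (0.0628). Slfn2, a regulator of quiescence in leukocytes, measured 3.98, 2.90 and 4.41 CPM against 0.51, 0.80 and 0.94. Its log2 fold change was 2.30 ± 0.47 (SE, edgeR adjusted p 0.0441), and leaving out any 1 of the 6 libraries ended the call (adjusted p 0.0702 to 0.18), as did limma-voom (0.0844) and leaving out both letter A libraries (0.0899). Counts of Sp110 and Ifi204 are fractional, so reads were shared with other genes, and their levels are uncertain to that extent.

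The classical members of the list were sparse. Mx2 had 11, 9 and 15 counts in injured A, B and C and 0, 4 and 8 in non-injured A, B and C, and Mx1, which did not pass the filter, had 8, 6 and 14 against 2, 3 and 4. Rsad2, the antiviral enzyme viperin, had 32, 20 and 12 counts against 4, 8 and 7 (3.22 ± 1.60 and 0.79 ± 0.24 CPM, SD, n = 3, edgeR adjusted p 0.0996). Oasl1, the paralogue of Oasl2, had 28, 15 and 28 counts against 8, 9 and 5 (log2 1.93, adjusted p 0.0774, and 0.0349 with the letter block). Ifit1, Ifit2, Ifi35 and Eif2ak2, in contrast, overlapped between groups, with log2 values of 0.59, 0.50, 0.09 and 0.27.

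Interferon gamma target genes, the guanylate-binding proteins and immunity-related GTPases among them, had a median log2 fold change of 0.00 over 14 tested (19 measured). Those passing numbered 0 by edgeR, DESeq2 and limma-voom and 0 with the letter block. Gbp9 alone was at an unadjusted edgeR p under 0.05 (7.14% of those tested, against 9.25% of all genes higher). Of the 19, 1 was separated with injured higher (Gbp3), 5.26% against 14.1% of all rows. Another 1 was separated with injured lower (Gbp6), where 9.57% of all genes tested were. Gbp9 had 24, 50 and 47 counts in injured A, B and C and 13, 43 and 19 in non-injured A, B and C (log2 0.96, adjusted p 0.295). Gbp6 had 19, 19 and 17 counts against 51, 28 and 27 (log2 -0.69, adjusted p 0.411). The difference between these genes and the type I list was not tested.

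**Figure D3:**
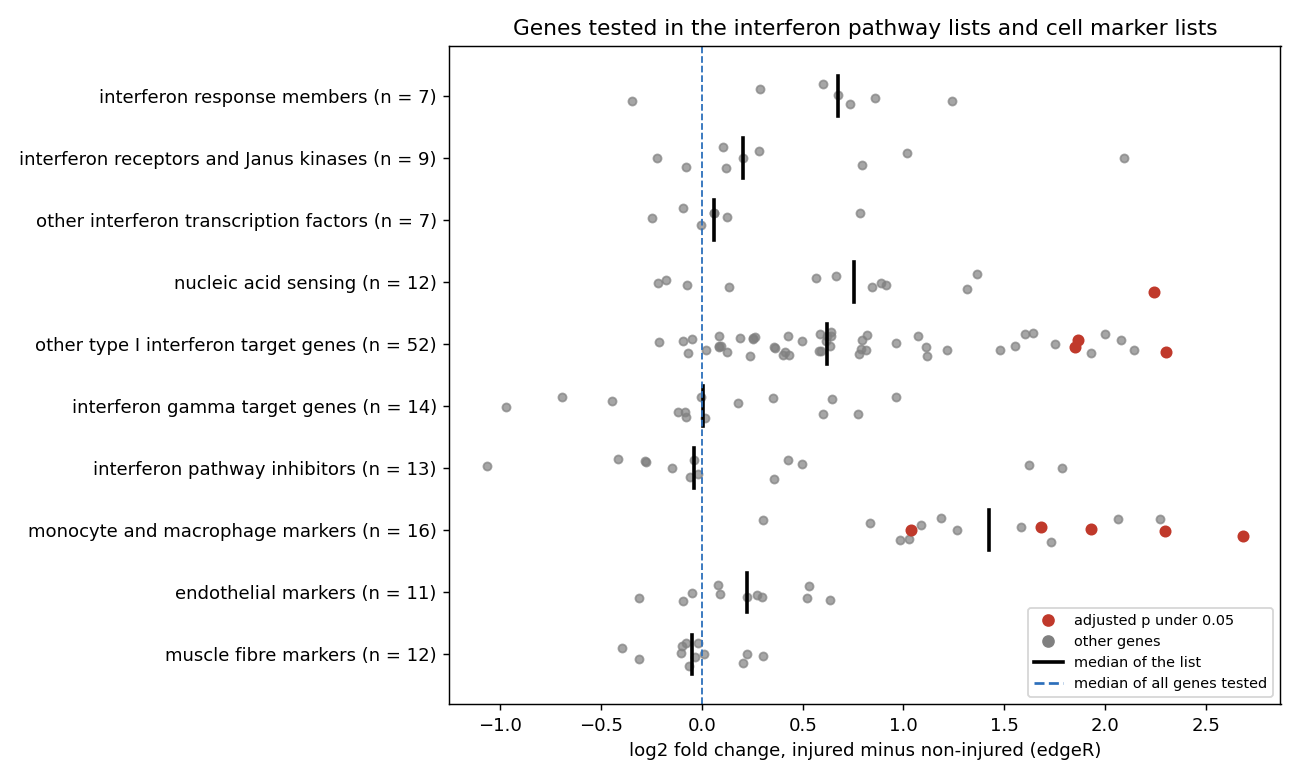
Log2 fold change (x axis) of each gene tested in the interferon lists and in 3 cell marker lists (rows), with genes past an adjusted p of 0.05 in red, list medians as black bars and the median of all genes as a dashed line. The type I target list has its median at 0.62 and the macrophage list at 1.43, while the interferon gamma list sits at 0.00.

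Of 13 inhibitors of the pathway 0 passed by edgeR, DESeq2 or limma-voom. The median log2 fold change was -0.04, with 8 of the 13 negative. At an unadjusted edgeR p under 0.05, 3 were higher (23.1%, against 9.25% of all genes), and 2 rose with the letter block (15.4%, against 3.21%). The first of these was Socs3, which blocks Janus kinases, at 19.6, 15.9 and 7.69 CPM in injured A, B and C and 9.44, 2.30 and 2.28 CPM in non-injured A, B and C. Injured C lay below non-injured A, but each injured library was above the non-injured one of its letter (log2 1.62, adjusted p 0.131, and 0.00221 with the letter block). The second was Ptpn6, a phosphatase of blood cells, with 26, 25 and 19 counts against 7, 8 and 9 (log2 1.79, adjusted p 0.0801, and 0.0405 with the block). Ptpn6 passed the filter on its injured libraries, so the shares above are not independent of its rise. Usp18, a target of type I interferon that binds IFNAR2 and shuts off signalling, went the other way, with 4, 7 and 16 counts in injured A, B and C and 23, 21 and 23 in non-injured A, B and C. Every injured library was below every non-injured one, at a log2 fold change of -1.06 ± 0.51 (SE, edgeR adjusted p 0.341).

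Markers of monocytes and macrophages, which also express these genes, moved with the groups. Of 16 tested (19 measured) 5 rose by edgeR, Lyz2, Itgam, C1qb, Lgals3 and Mrc1, 31.2% of those tested against 0.715% of all genes, and 11 did so with the letter block, 68.8% against 3.21%. Lgals3, Adgre1, Fcgr1 and Cd14, at non-injured means of 0.34 to 1.23 CPM, passed the filter on their injured libraries. These shares are therefore not independent of their rises. Of the 5 called by edgeR, Itgam alone kept its call in every alternative that tested it, and Lyz2 lost it without non-injured C (adjusted p 0.063). C1qb lost it without injured C or non-injured C (adjusted p 0.0596 and 0.0895). Lgals3 (without injured B, injured C or non-injured C) and Mrc1 (without any 1 library but injured B) lost theirs at adjusted p up to 0.151 and 0.219, and also by limma-voom (0.0527 and 0.0691). The 19 summed to 231, 147 and 176 CPM in injured A, B and C and to 79.2, 67.4 and 63.7 CPM in non-injured A, B and C, and 2 of them had no count in at least 1 library. Over the same libraries the 8 interferon response genes summed to 39.4, 41.7 and 44.7 CPM in injured and 26.4, 22.8 and 33.9 CPM in non-injured A, B and C. Within the injured group the order of these sums differed. Macrophage markers were highest in A and lowest in B, and the interferon response genes were highest in C and lowest in A. In the latter sum Irf1 (2.76 CPM) and Ifi27 (3.22 CPM), both overlapping between groups, were lowest in A, and Bst2 (3.70 CPM) was highest in C. Of the 4 separated genes tested, Irf7, Irf9 and Oasl2 were lowest in B and Stat2 in C. The other type I target genes summed to 376, 356 and 377 CPM in injured A, B and C and to 262 to 273 CPM in non-injured libraries. Endothelial markers summed to 144 to 154 against 126 to 137 CPM. Markers of lymphocytes and plasmacytoid dendritic cells went both ways. Over the injured and the non-injured libraries Cd3e had 35 and 65 counts, Siglech 14 and 22 and Ccr9 399 and 597, with overlapping groups. Tcf4 had 1553 and 2102 counts, and its CPM was lower in every injured library (log2 -0.18, edgeR adjusted p 0.551). Cd8a had 42 and 17 counts, Ms4a1 28 and 8, and Prf1 29 and 10. These 3 of the 7 measured were higher in every injured library, though too sparse to be tested. The 7 together summed to 103 to 106 CPM in injured and 109 to 133 CPM in non-injured libraries. In bulk RNA more cells of a type and more RNA per cell cannot be told apart, and the part of macrophage RNA in the values of the interferon response genes was not tested.

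**Figure D4:**
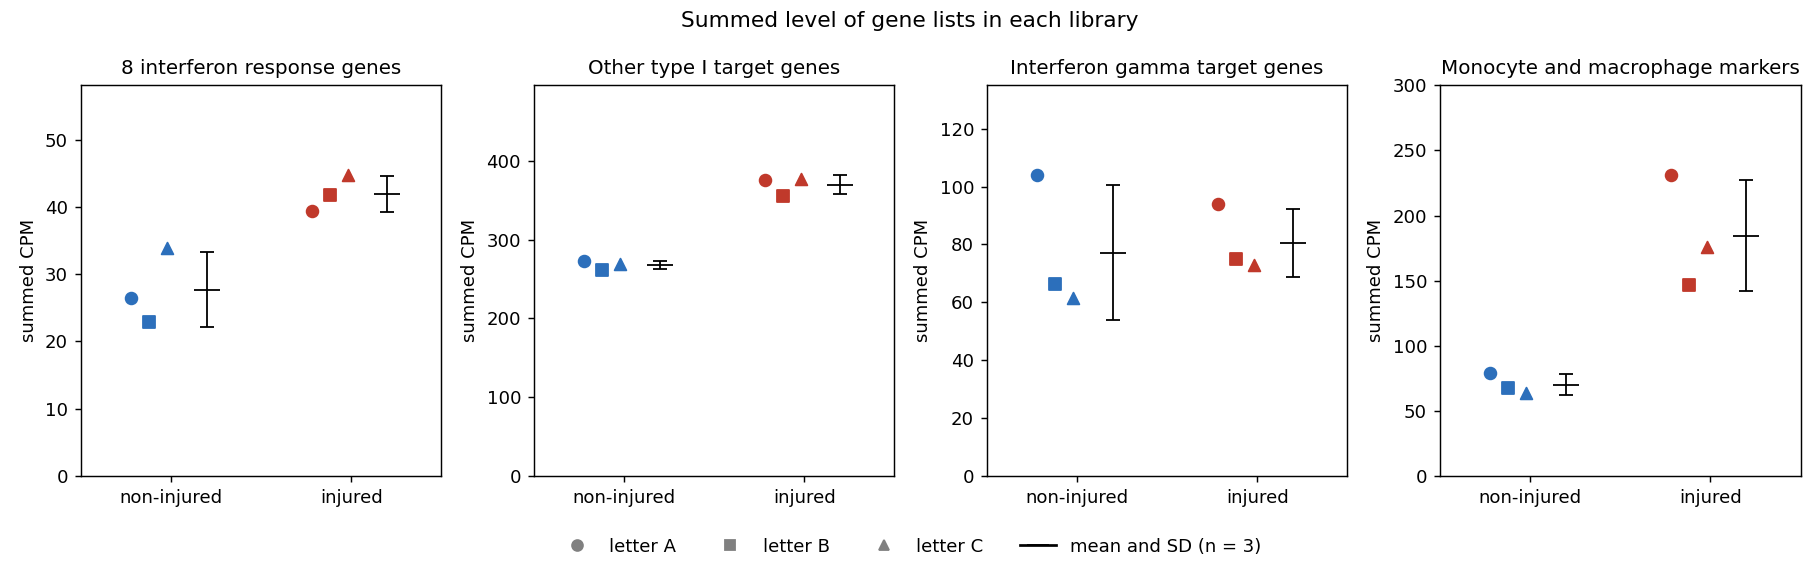
Summed CPM (y axis, linear from 0) of the 8 interferon response genes, the other type I target genes, the interferon gamma target genes and the macrophage markers in each library, with the mean and SD (n = 3) in black. All panels but that of the interferon gamma targets show injured libraries above all non-injured ones, and in that panel the letter A libraries, at 93.9 and 104 CPM, lie above the others in both groups.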

How the data were processed

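The authors deposited estimated counts per gene, unscaled, for 6 libraries. STAR 2.7.8a, Partek and DESeq2, and the builds mm10 and hg19, are named in the submitters' processing notes with no role given. For the counter and its strand setting: not given in the sources used here. Starts and ends of 96.6% of the rows match GENCODE M21 on mm10 (ends within 1 base). The lowest row maximum was 10 counts, so a gene below that in all libraries has no row.

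Counts were rounded, filtered with filterByExpr (16095 of 20015 genes kept), scaled by TMM and tested with edgeR 4.0.16 (quasi-likelihood F test, two-sided, Benjamini-Hochberg over all genes tested). A gene sparse in non-injured libraries could pass this filter on the injured ones alone, as Ikbke, Slfn2, Ptpn6 and Lgals3 did. An SE was taken as the size of the log2 fold change divided by the root of its F. Log2 CPM for correlations used a prior count of 2. The fit was tested on simulated data. Alternatives used DESeq2 1.42.0, limma 3.58.1, other scalings and filters, the letter as a block, and fewer libraries. Deviations from group means correlated between libraries of the same letter at 0.315 (A), 0.201 (B) and 0.108 (C) over the genes tested. Between different letters the values ran from -0.232 (injured B with non-injured A) to 0.0693 (injured B with non-injured C). The C value was thus only a little above the highest unmatched one, and whether a shared letter marks a true pair is unknown. The main edgeR test was unpaired. Pairing by letter entered only in the letter-pair ratios and in the blocked fit. The rule for naming took all 8 genes and, from each list, up to 4 genes of smallest p and any past the threshold. Not all of those are printed: endothelial, fibre and fibro-adipogenic markers are given by sums or not at all, and some pathway genes are left out. Other genes were named after their values were seen. The members and lists were chosen with earlier results of these data known. Precision is limited by few counts. Some genes of the lists are not reported here.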

Additional observations from a re-analysis of the deposited data

How the results depend on the processing

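Over 13 or 14 alternatives per gene, 91 of 92 log2 fold changes of the 7 genes tested kept their direction; the exception was Irf1, at -0.028 without injured replicate B and from -0.028 to 0.55 over the fits without 1 library. Genes past the threshold among the 7 numbered 0 in the edgeR fit, 1 (Irf7) with DESeq2, 1 (Irf7, log2 1.23 in both) with the replicate block, and 0 in every other alternative, 0 to 0 without 1 library. Over all genes, 115 were higher and 5 lower; DESeq2 called 252 and 75, limma-voom 53 higher, the replicate block 516 and 427, no filter 17 lower, a mean of at least 50 counts 3 lower, and the fit without both letter A libraries 132 lower. Fits without 1 library called 20 to 104 higher and 0 to 25 lower. The 3 other type I target genes called became 5 with DESeq2, 6 with the replicate block, 1 where genes needed a mean of 50 counts, 1 by limma-voom, and 1 to 2 without 1 library. The filter of 50 counts kept only Irf9 of the 8 genes. The causes of these changes were not tested. The blocked fit changed no other call among the 8 genes. Fits without 1 library leave 2 libraries in a group, and with means of 9.50 to 54.0 counts, small changes in these genes were not detectable.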

Other observations

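Some interferon gamma target genes followed the letter of the library rather than the group, a pattern seen after the values were examined. The immunity-related GTPase Iigp1 measured 7.81 CPM in injured A and 10.7 CPM in non-injured A, against 1.14 to 2.18 CPM in the 4 libraries of letters B and C. Gbp10, a guanylate-binding protein, measured 3.98 and 7.14 CPM in the letter A libraries and 0.46 to 1.49 CPM in the others, and Irgm2 measured 21.0 and 26.1 CPM against 9.41 to 14.5 CPM. Cish, an inhibitor induced by cytokines through STAT5, measured 72.7 and 109 CPM in letter A and at most 29.7 CPM in the others. The 8 interferon response genes did not share this order: Irf7 was highest in injured C, and Ifi27 was lowest in injured A and highest in non-injured A. The labels do not say what letter A stands for, and no test of it was made.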
